A study of Mus musculus with 2 samples.

Results

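The genes described here encode the enzymes that remove reactive oxygen species and that make, use and recycle glutathione and thioredoxin. They were chosen by symbol from the deposited expression table: the glutathione peroxidases (Gpx), glutathione transferases (Gst and Mgst), peroxiredoxins (Prdx), superoxide dismutases (Sod) with catalase (Cat), thioredoxins and their reductases (Txn and Txnrd), the enzymes of glutathione synthesis and reduction (Gclc, Gclm, Gss, Gsr), and Nfe2l2, Keap1 and Nqo1. In all, 54 of the 22740 genes of the table matched. Poly-A RNA of the whole uterus was sequenced from C57BL/6 mice at pregnancy day 4, with 1 library for each of 2 animals. The libraries are titled as wild type and form a single group; they are named here uterus 1 (title number 1) and uterus 2 (title number 2). No other treatment, genotype or control group was analysed here. Values are the authors' RPKM, which are reads per kilobase of transcript, scaled to the reads of the library, and can be compared between genes. Errors are SD over the 2 uteri.

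Superoxide dismutases turn superoxide into hydrogen peroxide, which catalase, the glutathione peroxidases and the peroxiredoxins then reduce. Glutathione peroxidases draw electrons from glutathione and most peroxiredoxins from thioredoxin, and both carriers are reduced again at the cost of NADPH. Glutathione transferases join glutathione to reactive or foreign molecules, and the transcription factor NRF2 (gene Nfe2l2), held in check by KEAP1, raises many of these genes under oxidative stress. In the uterus, several of these enzymes are known to vary with ovarian steroid hormones.

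Genes that mark the tissue were present in both libraries: the 5 uterine genes Pgr, Esr1, Hoxa10, Hoxa11 and Hdc summed to 519 (uterus 1) and 512 RPKM (uterus 2). The summed levels of 5 marker genes each were 3917 and 3756 RPKM for stroma, 1741 and 1737 RPKM for smooth muscle, 244 and 279 RPKM for epithelium, and 289 and 312 RPKM for leukocytes. Markers of neighbouring or other organs were low: 11.7 and 16.7 RPKM for ovary and oviduct (Ovgp1 highest at 5.78 and 9.31 RPKM), 6.02 and 6.11 RPKM for liver (Ttr highest at 4.27 and 5.39 RPKM, Apoa1 and Fgb listed at 0) and 1.71 and 0.489 RPKM for fat. Among red blood cell genes Alas2 lay at 6.85 and 6.53 RPKM, and of 11 globin symbols 10 were listed at 0 in both, while the adult beta-globin row Beta-s, looked up after the values were seen, lay at 36.7 and 43.0 RPKM. Reads estimated from the RPKM values summed to 3843630 in uterus 1 and 4273825 in uterus 2, slightly above the totals by which the values were scaled (3834174 and 4256101), and the smallest reads possible summed to 3487503 and 3874963. Of the former, the 54 genes held 12789 and 15185. In a whole organ a level cannot be assigned to a cell type, and fewer cells of a type and less RNA per cell cannot be told apart.

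The antioxidant and glutathione genes were broadly expressed. Of the 54, 45 reached 1 RPKM in both uteri, or 83.3%, against 58.4% of all genes in the table. In both uteri 36 had 10 RPKM or more, against 30.4% of all genes, and 7 had 100 RPKM or more, against 1.92%. A further 2 reached 1 RPKM in uterus 2 alone (Gsta2 and Gstm6), and 7 lay under it in both. Of those 7, Gpx5, Gpx6 and Gsta1 were listed at 0 in both uteri, as were 23.4% of all genes, and Gstm3, Gstt4 and Mgst2 were listed at 0 in uterus 2 with 1, 2 and 1 reads in uterus 1. The last of the 7, Gsto2, had 1 and 3 reads. Among the 46 genes averaging 1 RPKM or more, the median level was 31.95 (uterus 1) and 28.996 RPKM (uterus 2), and over all 13647 genes past the same filter it was 10.96 RPKM in both. The filter on the mean chooses the genes in both sets.

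Together the 54 genes held 0.624% of the summed RPKM in uterus 1 and 0.675% in uterus 2, or 0.650% ± 0.0361 (SD, n = 2). The cytosolic and other glutathione transferases made up the largest part of this sum, at 852 and 1009 RPKM. Peroxiredoxins followed at 639 and 672 RPKM, and glutathione peroxidases at 479 and 497 RPKM. Superoxide dismutases and catalase summed to 230 and 243 RPKM, the thioredoxin system to 193 and 184 RPKM, and the microsomal glutathione transferases to 115 and 126 RPKM. Glutathione synthesis and reduction (66.0 and 66.5 RPKM) and the group of Nfe2l2, Keap1 and Nqo1 (61.6 and 62.6 RPKM) were lowest. The order of the 8 groups was the same in both uteri, but it turned without genes that have near-identical copies. The 5 highest genes, Gstm2, Prdx2, Gstm1, Gpx1 and Prdx1, held 46.1% ± 1.11 of the summed RPKM of the 54.

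**Figure D1:**
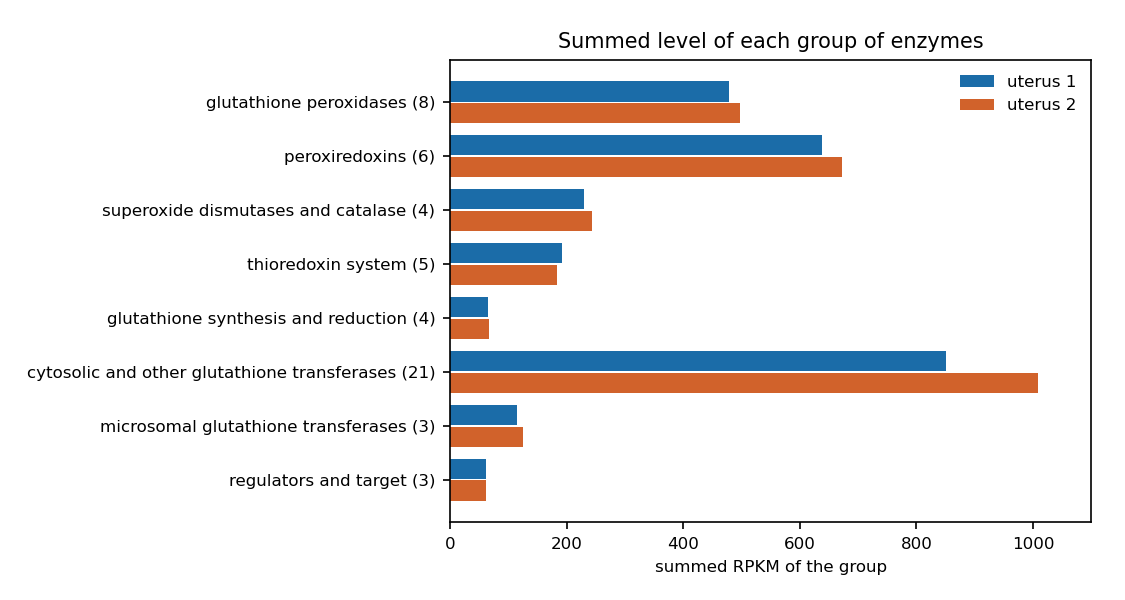
Summed RPKM of each group of antioxidant and glutathione genes in uterus 1 (blue) and uterus 2 (orange), with the number of genes in parentheses; each bar is 1 library. Glutathione transferases reach 852 and 1009 RPKM, and the group of Nfe2l2, Keap1 and Nqo1 61.6 and 62.6 RPKM.

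For some of these genes the level is uncertain because near-identical sequence exists elsewhere in the genome, and the sources used here do not give how the authors treated reads with several matches. An annotated transcript of each gene was compared with the genome, counting matches of at least 50 bases at 97% identity outside the gene. In 9 of the 54 at least 50% of the transcript had such a match: Gsta1 (100%), Gsta2 (100%), Gstp2 (100%), Sod1 (94.7%), Gstp1 (94.5%), Gstm1 (87.5%), Gstm2 (82.7%), Gpx4 (73.7%) and Prdx1 (70.2%). Gsta1 and Gsta2 matched each other, as did Gstp1 and Gstp2. No match was found for 38 genes. Without the 9, the other genes held 0.384% ± 0.0114 of the summed RPKM, and the order of the groups turned: peroxiredoxins were highest at 456 and 487 RPKM, followed by glutathione peroxidases at 381 and 392 RPKM and the cytosolic and other transferases at 259 and 289 RPKM. Superoxide dismutases and catalase then summed to 53.7 and 52.4 RPKM, the lowest of the 8 groups.

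The superoxide dismutases were ordered by compartment. Sod1, the copper-zinc enzyme of the cytosol (NM_011434, chromosome 16, 90220987 to 90226569 on mm9, plus strand), lay at 176 (uterus 1) and 190.4 RPKM (uterus 2), on 437 and 525 reads. Sod2, the manganese enzyme of mitochondria, lay at 20.1 and 19.2 RPKM, and Sod3, the extracellular enzyme, at 2.04 and 3.10 RPKM on 16 and 27 reads. Sod1 was 9.35 ± 0.819 times as abundant as Sod2 per length, and none of the 3 overlapped another in its range over the uteri. Cat, the peroxisomal enzyme that splits hydrogen peroxide, stood between them at 31.6 and 30.1 RPKM on 309 and 327 reads. Sod1 thus held 77.5% ± 1.27 of the summed RPKM of these 4 genes. Near-identical copies covered 94.7% of the Sod1 transcript and 36.8% of that of Sod2. The order, the ratio and this share therefore depend on how reads with several matches were treated, which the SD does not cover.

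Among the glutathione peroxidases, 6 of 8 were detected. Gpx1, the general cytosolic enzyme (NM_008160, chromosome 9, 108241411 to 108242673), lay at 225 (uterus 1) and 220.1 RPKM (uterus 2), on 900 and 979 reads, and ranked 180 of all genes by mean. Gpx4, which reduces lipid hydroperoxides within membranes, lay at 98.4 and 105 RPKM. Gpx8, an enzyme of the endoplasmic reticulum, lay at 76.5 and 86.95 RPKM, and its relative Gpx7 in the same compartment at 17.0 and 20.3 RPKM, a ratio of 4.39 ± 0.162. Gpx3, the secreted enzyme of plasma, lay at 46.9 and 44.9 RPKM. Gpx2, known from the lining of the gut, lay at 15.6 and 19.6 RPKM on 64 and 89 reads, a range that overlapped that of Gpx7. All other neighbours among the 6 detected peroxidases were apart in both uteri. Gpx5 and Gpx6, known from the epididymis and the olfactory lining, are neighbours on chromosome 13 and were both listed at 0.

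All 6 peroxiredoxins exceeded 40 RPKM in both uteri. Prdx2, a cytosolic enzyme also known for its abundance in red blood cells (NM_011563, chromosome 8, 87493547 to 87498212), was highest at 239 (uterus 1) and 259.9 RPKM (uterus 2). Red blood cell transcripts were measured, with Alas2 at 6.85 and 6.53 RPKM and Beta-s at 36.7 and 43.0 RPKM, and their part in the level of Prdx2 was not tested. Prdx1, its close cytosolic relative, lay at 183 and 185 RPKM on 994 and 1116 reads. Both were well above the mitochondrial Prdx3, at 40.8 RPKM in each uterus, with ratios to it of 6.12 ± 0.356 for Prdx2 and 4.51 ± 0.0346 for Prdx1. Prdx5, found in several compartments, lay at 67.9 and 78.9 RPKM. Prdx4, of the endoplasmic reticulum, lay at 54.0 and 53.7 RPKM, and Prdx6, which is reduced through glutathione, at 53.97 and 53.96 RPKM. The ranges of Prdx4 and Prdx6 overlapped, and all other neighbours in the order were apart.

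In the thioredoxin system the cytosolic members again exceeded the mitochondrial ones. Txn1, cytosolic thioredoxin (NM_011660, chromosome 4, 57956245 to 57969283), lay at 101 (uterus 1) and 97.5 RPKM (uterus 2), and mitochondrial Txn2 at 48.6 and 42.2 RPKM, a ratio of 2.20 ± 0.159. Their reductases differed more. Txnrd1, the cytosolic reductase, lay at 32.7 and 34.4 RPKM on 504 and 589 reads, whereas the mitochondrial Txnrd2 lay at 4.65 and 5.80 RPKM and Txnrd3, known from the testis, at 5.15 and 4.23 RPKM. The ratio of Txnrd1 to Txnrd2 was 6.48 ± 0.768. Txnrd2 and Txnrd3 overlapped and could not be ordered.

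The enzymes that make and recycle glutathione lay at low to moderate levels. Gsr, which reduces oxidised glutathione, lay at 32.3 (uterus 1) and 27.9 RPKM (uterus 2). Gclc, the catalytic subunit of the rate-limiting ligase, lay at 15.1 and 17.2 RPKM, and its modifier subunit Gclm at 11.3 and 12.8 RPKM. The ratio of the subunits was 1.34 ± 0.00908, nearly the same in both uteri. Gss, the synthase of the second step, was lowest at 7.30 and 8.60 RPKM on 52 and 68 reads. The 4 genes did not overlap one another in range.

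**Figure D2:**
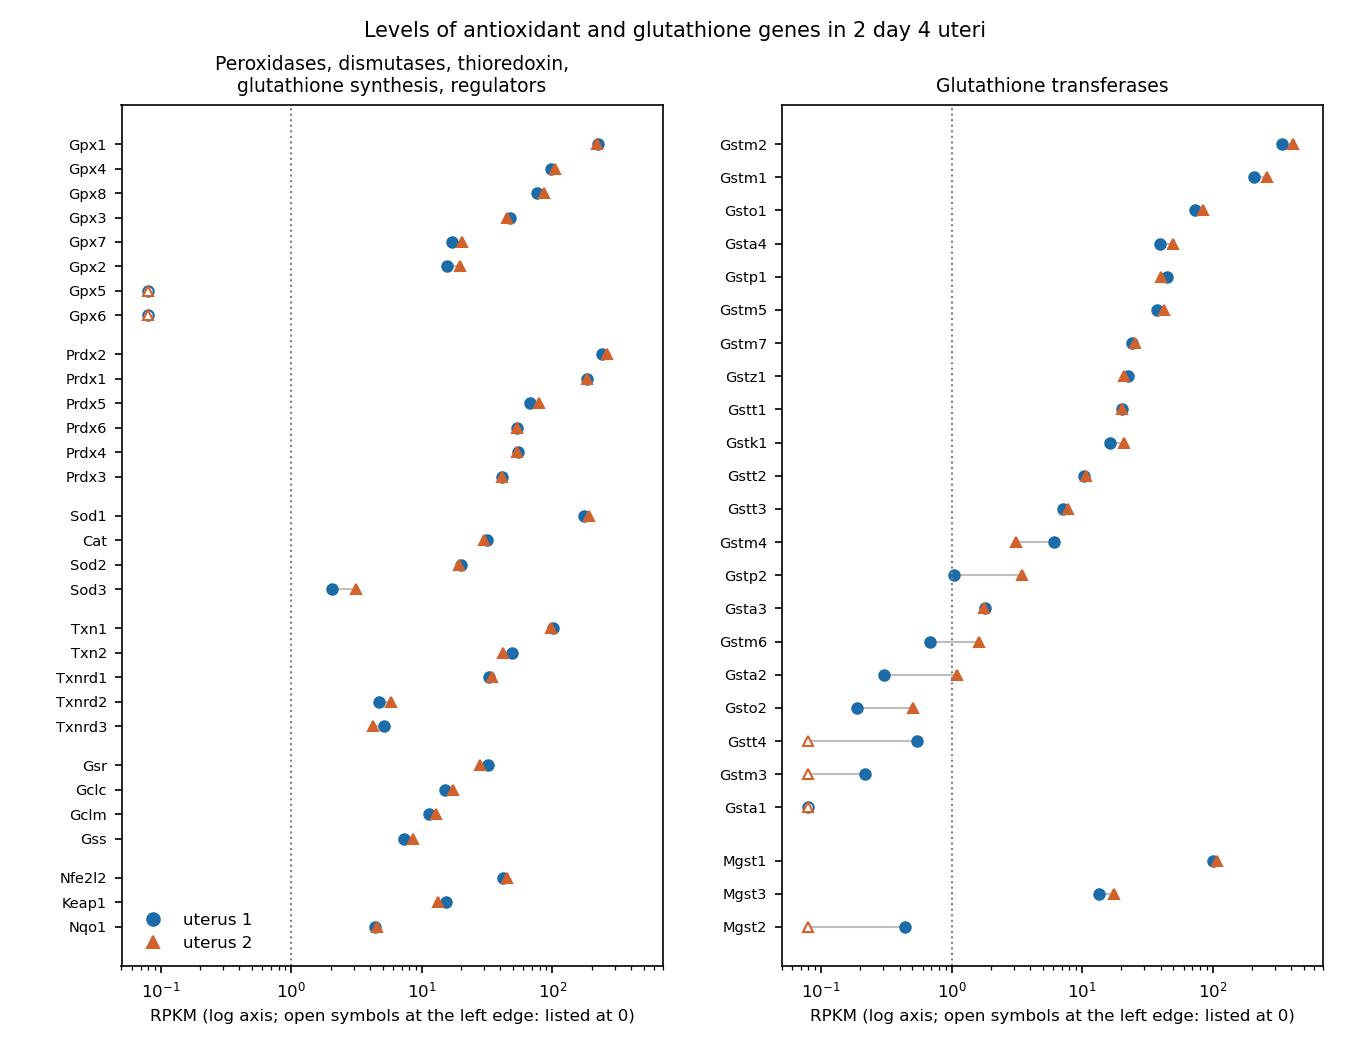
RPKM of all 54 genes in uterus 1 (blue circles) and uterus 2 (orange triangles) on a log axis, with glutathione transferases on the right; open symbols at the left edge are values listed at 0, and the dotted line is 1 RPKM. The pairs lie close together except for genes with few reads, such as Gstp2 at 1.04 and 3.44 RPKM.

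The 21 cytosolic and other glutathione transferases, of 7 classes, spanned the widest range. The mu class (Gstm) held most of the signal, with 615 (uterus 1) and 749 RPKM (uterus 2), which was 23.3% and 26.2% of the summed RPKM of all 54 genes. Gstm2 (NM_008183, chromosome 3, 107784620 to 107789354 on mm9, minus strand) was the highest of all 54, at 338 and 413 RPKM on 1357 and 1842 reads, and ranked 122 in the table. Gstm1 (NM_010358, chromosome 3, 107815168 to 107820891, minus strand) lay at 208 and 263 RPKM on 1034 and 1446 reads. Gstm5 lay at 37.5 and 42.3 RPKM and Gstm7 at 24.0 and 25.6 RPKM. The other mu genes were low: Gstm4 at 6.08 and 3.09 RPKM, Gstm6 at 0.679 and 1.63 RPKM on 3 and 8 reads, and Gstm3 at 0.217 RPKM on 1 read in uterus 1.

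These 7 genes lie side by side within 149 kb of chromosome 3 (107698772 to 107847774), 6 of them on the minus strand. Level did not follow position. Gstm2, the highest, lies 12.53 kb from Gstm3, the lowest, and Gstm4 at the end of the cluster lies 22.43 kb from Gstm1. Without Gstm1 and Gstm2, which lie mostly in near-identical copies, the other 5 mu genes summed to 68.5 and 72.6 RPKM, below Gsto1 alone. The order by level was Gstm2, Gstm1, Gstm5, Gstm7, Gstm4, Gstm6 and Gstm3, and no neighbours in this order overlapped between the uteri. The step from Gstm6 (3 and 8 reads) to Gstm3 (1 and 0 reads) rests on few reads, so the order of these genes is uncertain. Gstm3 matched Gstm1 and Gstm6 in part (49.5% of its transcript had a near-identical match in the genome), so its 1 read could belong to another gene, whereas no match was found for Gstm4 or Gstm5.

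**Figure D3:**
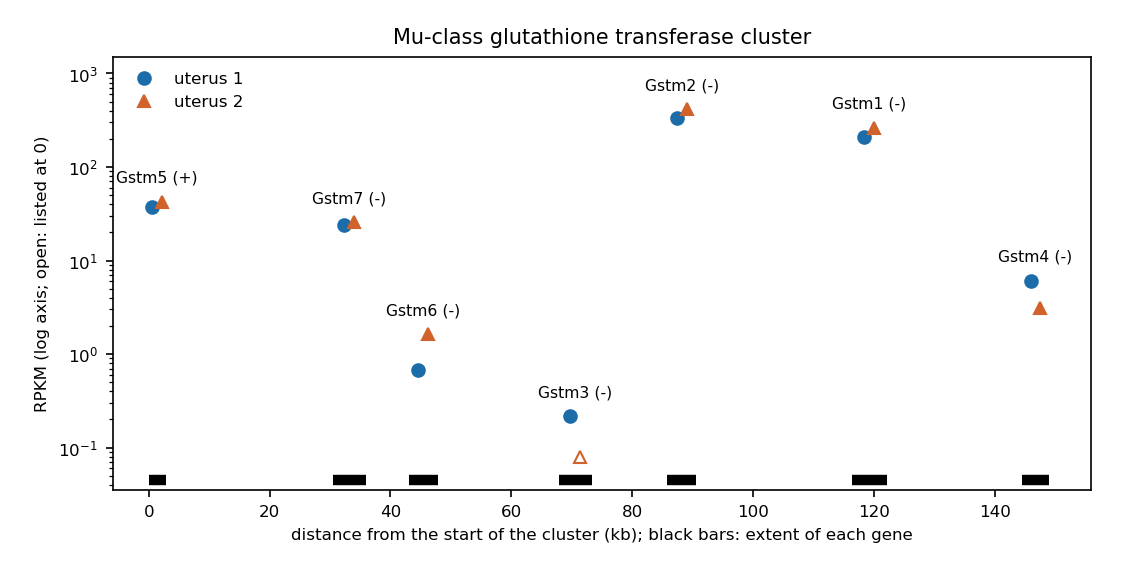
RPKM (log axis) of the 7 mu-class genes against their place in the cluster, in kb from its first gene, for uterus 1 (blue circles) and uterus 2 (orange triangles); black bars show the extent of each gene and signs its strand. Gstm2 at 338 and 413 RPKM stands next to Gstm3 at 0.217 RPKM and 0 (open symbol).

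The windows before the starts of 4 of these genes are shown because adjacent copies differed so widely in level. Each is the 250 bases before a RefSeq start on GRCm38.p6, read 5′ to 3′ along the gene, and capitals mark the core of the antioxidant response element bound by NRF2, TGACNNNGC on either strand.
Gstm2 (chr3:107986421-107986670, minus strand): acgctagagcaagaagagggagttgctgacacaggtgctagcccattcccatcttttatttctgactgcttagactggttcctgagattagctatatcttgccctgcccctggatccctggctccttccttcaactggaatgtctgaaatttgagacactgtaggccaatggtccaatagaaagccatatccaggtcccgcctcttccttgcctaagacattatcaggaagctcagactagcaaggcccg
Gstm1 (chr3:108017974-108018223, minus strand, the outer of its listed starts): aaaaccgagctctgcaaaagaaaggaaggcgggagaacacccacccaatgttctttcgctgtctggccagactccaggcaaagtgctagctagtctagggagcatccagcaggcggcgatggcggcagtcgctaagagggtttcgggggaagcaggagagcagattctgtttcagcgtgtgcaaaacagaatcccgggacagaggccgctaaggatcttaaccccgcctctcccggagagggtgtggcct
Gstm5 (chr3:107895604-107895853, plus strand): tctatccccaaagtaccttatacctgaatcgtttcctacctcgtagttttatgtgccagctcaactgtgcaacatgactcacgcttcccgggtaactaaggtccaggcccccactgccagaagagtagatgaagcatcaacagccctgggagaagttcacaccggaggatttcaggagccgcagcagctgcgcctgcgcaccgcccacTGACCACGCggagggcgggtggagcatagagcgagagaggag
Gstm3 (chr3:107969175-107969424, minus strand): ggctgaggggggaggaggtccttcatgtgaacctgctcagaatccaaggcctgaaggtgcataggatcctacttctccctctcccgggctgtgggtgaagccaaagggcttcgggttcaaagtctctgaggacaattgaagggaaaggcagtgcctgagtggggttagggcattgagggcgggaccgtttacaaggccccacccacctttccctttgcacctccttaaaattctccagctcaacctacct
The Gstm5 window held 1 core match, 42 bases before the start, and 13 CpG dinucleotides. The Gstm2 window held no match and 3 CpG, the Gstm3 window no match and 4 CpG, and the Gstm1 window no match and 13 CpG. The window of the other listed start of Gstm1 held no match and 8 CpG. Of the mu genes not shown, Gstm7 also held a core match, and Gstm4 and Gstm6 held none.

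In the omega, alpha and pi classes a single gene held most of the signal. Gsto1 of the omega class, which also reduces dehydroascorbate, lay at 72.6 (uterus 1) and 83.99 RPKM (uterus 2), whereas Gsto2, which lies 0.76 kb from it on chromosome 19, lay at 0.187 and 0.506 RPKM. Gsta4 of the alpha class, known for detoxifying the lipid aldehyde hydroxynonenal, lay at 39.5 and 49.3 RPKM. The other alpha genes were low, with Gsta3 at 1.80 and 1.78 RPKM and Gsta2 at 0.305 and 1.10 RPKM on 1 and 4 reads. Gstp1 of the pi class lay at 44.5 and 40.1 RPKM on 127 reads in each library, and its neighbour Gstp2 at 1.04 and 3.44 RPKM. Since their transcripts match nearly throughout, the division of reads between Gstp1 and Gstp2 is uncertain.

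The theta class was more even. Gstt1 lay at 20.1 and 20.2 RPKM, Gstt2 at 10.3 and 10.6 RPKM and Gstt3 at 7.10 and 7.78 RPKM, while Gstt4, which lies between Gstt1 and Gstt2 on chromosome 10, had 2 reads in uterus 1 and was listed at 0 in uterus 2. Gstz1, an isomerase of tyrosine breakdown, lay at 22.4 and 20.8 RPKM, and Gstk1, found in mitochondria and peroxisomes, at 16.3 and 21.0 RPKM. Among the 10 highest of these transferases, Gsta4, Gstp1 and Gstm5 overlapped in range, and Gstk1 overlapped both Gstt1 and Gstz1. Several lower neighbours overlapped too, such as Gstm4 with Gstp2 and Gstp2 with Gsta3. Of the microsomal transferases, which sit in membranes, Mgst1 lay at 101 and 108 RPKM and Mgst3 at 13.6 and 17.4 RPKM. Mgst2 had 1 read in uterus 1 and was listed at 0 in uterus 2. Mgst1 held 87.0% ± 1.15 of the summed RPKM of the 3 microsomal genes.

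Nfe2l2, the gene of NRF2 (NM_010902, chromosome 2, 75513576 to 75542698, minus strand), lay at 41.8 (uterus 1) and 44.6 RPKM (uterus 2) on 396 and 469 reads. Keap1, its inhibitor, lay at 15.4 and 13.4 RPKM, a ratio of Nfe2l2 to Keap1 of 3.02 ± 0.434. Nqo1, a quinone reductase, lay at 4.37 and 4.54 RPKM on 26 and 30 reads (at the least 13 and 15). These are transcript levels, and the protein activity of NRF2 was not measured.

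The same core letters were sought in the windows of all the genes, with each start listed by RefSeq taken as 1 window. Entries existed for 48 of the 54 genes, and not for Gclc, Gsr, Gsta4, Gstt2, Prdx6 and Sod3. Of the 48, 9 (18.8%) held TGACNNNGC in at least 1 window, against 11.5% of all 27025 genes with an entry: Gclm, Gsta3, Gstm5, Gstm7, Mgst1, Nfe2l2, Prdx1, Sod1 and Txnrd1. A match is a description of the letters and not a site, and a window without one says only that it lacks them. The GC box letters GGGCGG, on either strand, were found in 30 genes (62.5%), against 35.4% of all, and the TATA box letters TATAAA, on either strand, in 9 (18.8%), against 14.3%. The E box letters CACGTG were found in 2 (4.17%), against 6.86%. The background spans genes of all levels, among them 6404 averaging under 1 RPKM, against 8 of the 48. Shares of these letters at matched level were not tested. Windows are shown as examples for 3 of the 9 genes with the core match, with the match in capitals. That of Gstm5 is shown above, and those of the other genes with a match are not shown.
Prdx1 (chr4:116685349-116685598, plus strand): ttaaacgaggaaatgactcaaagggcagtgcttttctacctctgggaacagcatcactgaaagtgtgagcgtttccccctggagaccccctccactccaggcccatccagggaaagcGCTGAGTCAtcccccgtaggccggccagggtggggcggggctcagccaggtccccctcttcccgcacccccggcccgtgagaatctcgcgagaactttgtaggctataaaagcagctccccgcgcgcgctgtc
Sod1 (chr16:90220512-90220761, plus strand): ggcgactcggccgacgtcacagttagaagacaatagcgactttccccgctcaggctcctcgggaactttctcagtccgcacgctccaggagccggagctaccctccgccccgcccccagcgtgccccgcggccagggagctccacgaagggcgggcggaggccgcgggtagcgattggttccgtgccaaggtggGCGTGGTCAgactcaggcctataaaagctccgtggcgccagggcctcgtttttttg
Gclm (chr3:122245307-122245556, plus strand): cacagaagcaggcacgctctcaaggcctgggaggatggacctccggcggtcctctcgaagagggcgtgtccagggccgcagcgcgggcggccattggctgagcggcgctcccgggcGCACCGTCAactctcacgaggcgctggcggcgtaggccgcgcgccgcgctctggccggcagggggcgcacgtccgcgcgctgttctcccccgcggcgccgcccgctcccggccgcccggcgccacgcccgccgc
The match lay 133 bases before the start in Prdx1, 56 in Sod1 and 134 in Gclm, counted from its first base. In Prdx1 it overlapped the letters TGAGTCA of the AP-1 motif, which the core pattern can contain. Levels of the 3 genes ran from 11.3 RPKM (Gclm, uterus 1) to 190.4 RPKM (Sod1, uterus 2). Over all 9 genes with a match, mean levels ran from 1.79 (Gsta3) to 184 RPKM (Prdx1). A link between the letters and level was not tested.

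The uteri were then compared with each other. Both libraries belong to 1 group, so the difference describes these animals and libraries and has no replicate check. Each ratio is the log2 difference, uterus 2 minus uterus 1, with 0.1 RPKM added to both values, which understates the change of low genes. Genes averaging under 1 RPKM were left out, among them 8 of the 54. Among 46 such genes, 2 were at least 2-fold apart, against 2.6% of all 13647 genes, and 3 were at least 1.5-fold apart, against 8.35%. Of the 3, 2 were higher in uterus 2 (against 4.1% of all genes) and 1 in uterus 1 (against 4.26%). Both genes past 2-fold were higher in uterus 2, against 1.18%. The median log2 ratio was 0.10, against 0.00 over all genes (0.0007 before rounding), and 31 of the 46 (67.4%) were higher in uterus 2 by any amount, against 50.1%. The SD of the log2 ratio was 0.72 over the 10 of these genes between 1 and 10 RPKM, against 0.58 over all 6336 genes of that range. It was 0.17 over 28 genes between 10 and 100 RPKM, against 0.27 over all 6841, and 0.12 over 8 genes at 100 RPKM or more, against 0.29 over all 470.

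The 3 genes at least 1.5-fold apart had few reads. Gstp2 had 3 reads in uterus 1 and 11 in uterus 2, a log2 ratio of 1.63, and Gstm6 had 3 and 8, a log2 ratio of 1.15. Gstm4 went the other way, with 39 and 22 reads and a log2 ratio of -0.95. A two-sided exact binomial test on the reads of all 15143 genes with at least 6 reads, with Benjamini-Hochberg adjustment, compared these 2 libraries and not conditions. It gave adjusted p-values of 0.36 for Gstp2, 0.64 for Gstm6 and 0.13 for Gstm4, so none of the 3 passed the test at this depth. Its 95% interval for the ratio, which covers counting error only, was 0.871 to 18.4 for Gstp2, 0.576 to 14.04 for Gstm6 and 0.287 to 0.877 for Gstm4.

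The exact binomial test called 2 of the 46 genes tested, against 4.79% of all genes, a share near the background. Both were abundant mu-class genes and higher in uterus 2, as were 2.14% of all genes. Gstm1 had a ratio of 1.26 (95% interval 1.16 to 1.36, adjusted p = 2.0e-06 in the exact binomial test), and Gstm2 a ratio of 1.22 (1.14 to 1.31, adjusted p = 2.8e-06 in the same exact test). Both are among the genes with near-identical copies, and without those genes 0 of 39 were called by the exact binomial test, with 2 at an unadjusted p under 0.05 (Gstm4 and Gsta4). The reads of Gstm1 may be as few as 517 and 723, with which its adjusted p was 0.0036 in the exact test. The interval for Gstm5 was 0.889 to 1.43 around 1.13, and that for Gstm7 0.829 to 1.37 around 1.06, so differences of the size seen in Gstm1 lie within both. Whether Gstm1 and Gstm2 differ from the other mu genes in this was not tested. Beside them, summed epithelial markers lay at 244 and 279 RPKM (3 of 5 higher in uterus 2), stromal markers at 3917 and 3756 RPKM (4 of 5 higher), smooth muscle markers at 1741 and 1737 RPKM (4 of 5 higher) and leukocyte markers at 289 and 312 RPKM (3 of 5 higher). Single markers moved as much: Krt18 lay at 70.4 and 94.3 RPKM, Dcn at 456 and 578 RPKM and Col1a1 at 1184 and 851 RPKM. The exact binomial test called 1 epithelial marker higher in uterus 2, 1 stromal and 1 smooth muscle marker in each direction, and 1 uterine marker lower. The ovary and oviduct markers summed to 11.7 and 16.7 RPKM, with all 3 that averaged 1 RPKM or more higher in uterus 2 and 2 of them at least 1.5-fold. Their part in the difference of Gstm1 and Gstm2 was not tested.

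For other abundant genes the intervals were narrow and included 1. Prdx1 had a ratio of 1.01 (95% interval 0.926 to 1.10), Gpx1 of 0.978 (0.893 to 1.07), Prdx2 of 1.08 (0.9901 to 1.19), Sod1 of 1.08 (0.9498 to 1.23) and Prdx6 of 0.998 (0.881 to 1.13). The reads of Prdx2 may be 50% of those used, which would widen its interval. Of the 46 genes, 4 (8.70%) had an unadjusted p under 0.05 in the exact binomial test, against 15.7% of all genes tested: Gstm1, Gstm2, Gstm4 and Gsta4. Gsta4 had a ratio of 1.25 (1.00 to 1.55) and an adjusted p of 0.31 in that exact test.

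**Figure D4:**
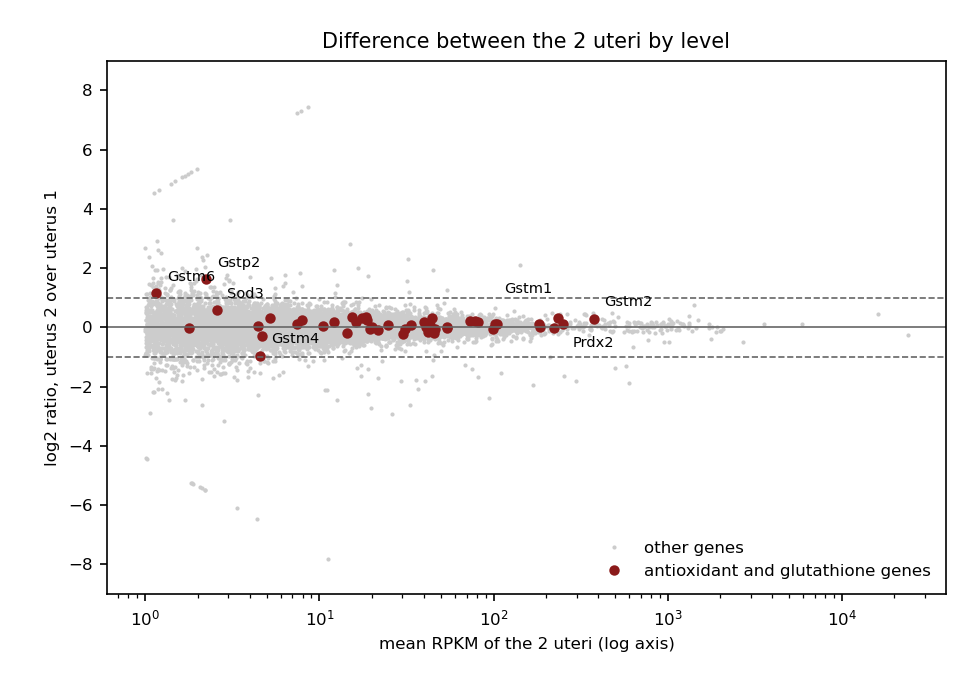
Log2 ratio of uterus 2 over uterus 1 against mean RPKM (log axis) for the 13647 genes averaging 1 RPKM or more; dark points are the 46 antioxidant and glutathione genes, grey points all others, and dashed lines mark 2-fold. Gstp2 (1.63) and Gstm6 (1.15) lie beyond a dashed line, and Gstm1 and Gstm2 lie at 0.33 and 0.29.

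The wider antioxidant system was described with 91 further genes, of which 90 were in the table and 81 were detected (90.0%, against 58.4% of all genes). Of the 81 averaging 1 RPKM or more, 0 were 2-fold apart, against 2.6% of all genes, and 3 were at least 1.5-fold higher in each uterus (4.1% and 4.26% of all genes). Among thioredoxin-like genes, Txnip, which binds and inhibits thioredoxin, was highest at 127 (uterus 1) and 168 RPKM (uterus 2). Of the genes of selenoprotein synthesis and transport, Sepp1, the secreted selenium carrier, lay at 170.3 and 201 RPKM. Both Txnip values lay above those of Txn1, and both Sepp1 values below those of Gpx1. The 7 selenocysteine enzymes among the 54 (Gpx1, Gpx2, Gpx3, Gpx4, Txnrd1, Txnrd2 and Txnrd3) summed to 428 and 435 RPKM.

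Genes that supply NADPH were detected without exception (8 of 8), with Tkt of the pentose phosphate pathway highest at 72.1 and 79.1 RPKM and G6pdx at 30.7 and 29.0 RPKM. Among genes of glutathione turnover (14 of 16 detected), Anpep, a surface peptidase, was highest at 111 and 84.98 RPKM. Slc7a11, the cystine carrier that feeds glutathione synthesis, lay at 2.49 and 1.604 RPKM, and Ggt1 lay at 0.129 and 0.232 RPKM on 1 and 2 reads. Hmox1, inducible haem oxygenase, lay at 11.7 and 13.6 RPKM, and Srxn1, which restores overoxidised peroxiredoxins, at 10.9 and 11.9 RPKM. Park7 was highest of the haem, quinone and other antioxidant genes (14 of 14 detected) at 86.9 and 90.0 RPKM. All 9 listed regulators were detected, led by Sqstm1, an adaptor that binds KEAP1, at 93.6 and 100.3 RPKM. Of the glutaredoxin and sulfoxide reductase genes (8 of 8 detected), Msrb3 was highest at 40.8 and 33.3 RPKM.

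Among 16 genes of enzymes that produce oxidants, 11 were detected. Maob, a monoamine oxidase that releases hydrogen peroxide, was highest at 93.6 (uterus 1) and 114 RPKM (uterus 2), followed by Cyba, a subunit of the NADPH oxidases, at 50.2 and 49.8 RPKM. Cybb, the catalytic subunit of the phagocyte oxidase, lay at 9.60 and 9.15 RPKM. Nox4 lay at 2.16 and 1.41 RPKM, while Nox1 was listed at 0 in uterus 1 and had 1 read in uterus 2. The exact binomial test called 5 of 85 genes of the wider list tested on reads, against 4.79% of all genes, and each difference was under 1.5-fold. Txnip (ratio 1.32, adjusted p = 8.3e-13), Sepp1 (1.18, adjusted p = 0.00015) and Maob (1.22, adjusted p = 0.00066) were higher in uterus 2 in this exact test, and Anpep (0.765, adjusted p = 9.1e-10) and Msrb3 (0.816, adjusted p = 0.021) lower. With the smallest reads possible for Msrb3, 290 and 263, its adjusted p was 0.2 in the exact test, and the other 4 stayed called.

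**Figure D5:**
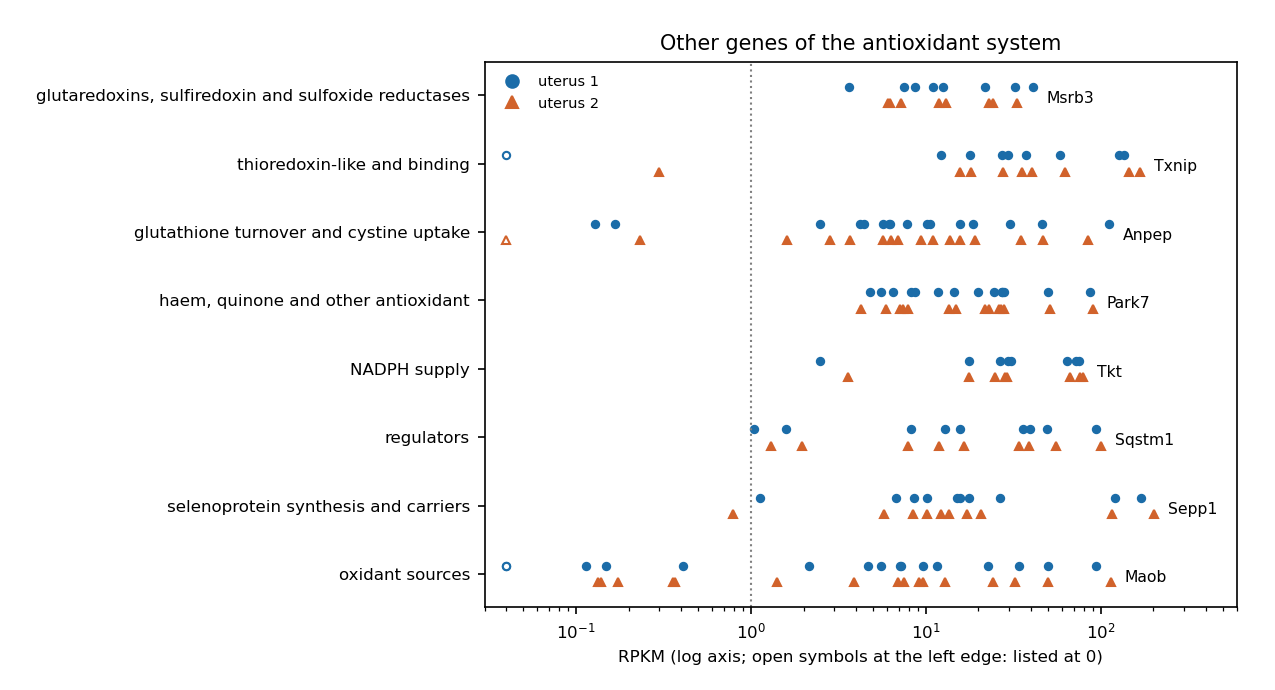
RPKM (log axis) of 90 other genes of the antioxidant system by function, in uterus 1 (blue circles) and uterus 2 (orange triangles); the highest gene of each part is named, open symbols are values listed at 0 and the dotted line is 1 RPKM. Sepp1 reaches 170.3 and 201 RPKM, and the oxidant sources span from 0 to Maob at 93.6 and 114 RPKM.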

How the data were processed

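Gene symbols, the further gene list and the marker lists were chosen with earlier results of these data known. Per the labels' protocols, libraries were made with the TruSeq RNA kit from 1 microgram of TRIzol-extracted RNA, purified by poly-A per the design text. The authors deposited RPKM values, per the series' design text. TopHat, edgeR and the build mm9 are named in the submitters' processing notes, without role or version. The annotation, the use of strand and the handling of reads with several matches are not given in the sources used here. A second deposited table holds identical RPKM values for all 54 genes and gave identifiers and coordinates. Starts there were read as counted from 0, since 12380 genes had an annotated transcript start (GENCODE M1, NCBIM37, the same assembly as mm9) 1 base after the deposited one and 781 at it. Printed coordinates count from 1.

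Reads were recovered from the RPKM values. Single-exon genes of known length gave scaling totals of 3834174 and 4256101, and 94.9% and 94.4% of the other single-exon values came out whole within 0.001 reads. For the other genes the transcript length was chosen to make the reads whole, nearest to an annotated length, so their reads are estimates. For 42 of the 51 antioxidant and glutathione genes with reads this length lay within 5% of an annotated one (it was furthest off for Gstz1 at 27.29%, Gpx1 at 23.38%, Gstm5 at 18.88%, Txnrd1 at 17.62% and Gpx4 at 13.24%), and for 7 of the 51 a smaller number of reads is possible.

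A two-sided exact binomial test (scipy 1.17.1) compared the reads of the libraries. It was also run on simulated data, from which no conclusion is drawn here. Near-identical copies were sought with blastn 2.17.0. Detection was set at 1 RPKM in both uteri and the pseudocount at 0.1 RPKM. Genes were named by a rule: in each group those averaging 1 RPKM or more, the 10 highest glutathione transferases, those at least 1.5-fold apart, and in the further list the highest of each part and any gene at least 2-fold apart. Other genes and the ratios between pairs of genes were chosen after their values were seen. The labels give separate animals but nothing further, so spread and p-values hold for these libraries. Sepx1 of the further list was not analysed here. Alternative thresholds, pseudocounts and scales were tried.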

Additional observations from a re-analysis of the deposited data

How the results depend on the processing

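The median log2 ratio kept its sign and stayed between 0.0919 and 0.1001 under all 8 alternatives run, and the number of detected genes lay between 38 and 47. It was 38 at 5 RPKM (against 42.9% of all genes), 43 at 2 RPKM (53.2%) and 46 at 0.5 RPKM (62.4%). On the TPM scale 46 were detected (63.4%), in uterus 2 alone 47 (60.0%) and in uterus 1 alone 45 (59.8%). Without the genes in near-identical copies 38 were detected. The count called on reads stayed at 2 with the smallest possible reads (against 3.9% of all genes) and with another expected share (against 4.73%). It was 0 without the 9 genes in near-identical copies, which include both genes called. The count at least 2-fold apart, 2 (against 2.6% of all genes), rests on low genes. It was 1 with a pseudocount of 1 (against 1.12%) and 7 without a filter on the mean (against 10.6%). At a mean of at least 5 RPKM it was 0 (against 0.722%), and at 10 RPKM 0 (against 0.657%). It was 1 without the genes in copies (leaving these out was chosen after seeing the data). The median level was 20.3 RPKM without the filter and 40.1 at a mean of at least 5 RPKM, by construction. The share of summed RPKM was 0.763% over NM_ identifiers alone, since fewer genes enter the total, and 0.384% without genes in copies. Without them the summed RPKM was 386 for glutathione peroxidases, 472 for peroxiredoxins, 53.0 for superoxide dismutases and catalase and 274 for cytosolic and other glutathione transferases, and the other 4 groups hold no such gene. The TPM scale, which changes the unit, gave a median level of 70.4 and sums of 1155 (glutathione peroxidases), 1551 (peroxiredoxins), 559 (superoxide dismutases and catalase), 446 (thioredoxin system), 157 (glutathione synthesis and reduction), 2201 (cytosolic and other glutathione transferases), 284 (microsomal glutathione transferases) and 147 (Nfe2l2, Keap1 and Nqo1). For means of 2 libraries, leaving out either moves a value by less than 1 SD by construction. No paired analysis was possible because both libraries share a single group.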

Other observations

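CpG dinucleotides were counted in the 250 bases before the start of 48 antioxidant and glutathione genes, taking the window with most CpG where a gene has several starts. The 31 genes averaging 10 RPKM or more had a median of 13 CpG (range 0 to 41), against 18 over 5453 genes at the same level. The 9 genes between 1 and 10 RPKM had a median of 10, against 14 over 4508 genes, and the 8 genes under 1 RPKM a median of 2.5, against 3 over 6404 genes. These are descriptions with no test. Some abundant genes had few CpG: Gstm2 had 3 at a mean of 376 RPKM and Gpx1 had 7 at 222 RPKM. Gclm had the most, 41, at a mean of 12.1 RPKM, and Gpx2 had none, at 17.6 RPKM. Gsto2 had 22 CpG at a mean of 0.346 RPKM.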
